A study of Mus musculus with 6 samples.

Results

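Klra3, Klra4, Klra7, Klra8, Klrb1c, Klrc1, Klrc2, Klrd1, Klre1 and Klrk1 encode killer cell lectin-like receptors, the surface proteins through which natural killer (NK) cells and some T cells read the state of other cells. These genes were taken by symbol from the feature lists of the deposited matrices, 10 of 33696 features. They were described in NK cells, CD8 T cells and other T cells of 5 single-cell RNA libraries made from live CD45+ (haematopoietic) cells sorted out of mouse mammary tumours. Each library stands alone for its treatment label: MRX, CTX, Combined, ctxd18t and combod18t. The labels are not spelled out; the series title names MERTK inhibition and cyclophosphamide in triple negative breast cancer. The protocol text, the same for every sample, has day 7 mice treated 3 hours before harvest, and the d18 of ctxd18t and combod18t is read here as day 18. Strain, age, doses, the tumour model and how many animals went into a library are not given in the sources used here, and a library labelled VC is not analysed here.

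These receptors fall into small families encoded side by side in the NK gene complex. Klrd1 (CD94) pairs either with Klrc1 (NKG2A), which carries an inhibitory tail, or with Klrc2 (NKG2C), which signals through an adaptor, and both pairs read the non-classical class I molecule Qa-1 (H2-T23). Klrk1 (NKG2D) is an activating receptor for stress-induced ligands of the Rae1, H60 and Mult1 (Ulbp1) groups and signals through the adaptors Hcst (DAP10) and Tyrobp (DAP12). The Klra genes encode the Ly49 receptors for classical class I: Klra3 (Ly49C) and Klra7 (Ly49G) inhibit, while Klra4 (Ly49D) and Klra8 (Ly49H, known for binding a cytomegalovirus protein) activate. Single NK cells are known to carry different subsets of Ly49 receptors. Klrb1c (NKR-P1C) is a classical NK cell surface marker in some strains, and Klre1 pairs with Klri1 or Klri2.

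The inhibitory and activating members differ at the start of the coding sequence, which is why these stretches are shown. The first 20 codons of 6 members are given from the GENCODE M21 annotation of GRCm38, 5′ to 3′. The authors' build was GRCm39, so the coordinates below hold for GRCm38 only. Sequences, identities and shared windows are those of this reference, and no strain is named for these mice. Capitals mark codons 6 to 11, where the codon pattern of an immunoreceptor tyrosine-based inhibition motif starts in Klra3, Klra7 and Klrc1; the same bases of Klra4 and Klra8 are capitalised for comparison.
Klra3: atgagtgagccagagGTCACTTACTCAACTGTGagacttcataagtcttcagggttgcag
Klra7: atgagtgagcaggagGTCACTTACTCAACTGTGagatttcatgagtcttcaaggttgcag
Klra4: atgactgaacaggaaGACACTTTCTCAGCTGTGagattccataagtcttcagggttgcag
Klra8: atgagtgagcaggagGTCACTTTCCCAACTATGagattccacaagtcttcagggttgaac
Klrc1: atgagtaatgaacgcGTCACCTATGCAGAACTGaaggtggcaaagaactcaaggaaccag
Klrc2: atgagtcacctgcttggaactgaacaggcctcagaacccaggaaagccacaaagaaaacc

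Within the first 60 codons the motif pattern was found once, from codon 6, in Klra3, Klra7 and Klrc1, and in none of the other 7 members. Relative to Klra3, both Klra4 and Klra8 carry the substitution A23T, counted from the A of the start codon, inside the capitalised stretch. All 6 genes lie on the minus strand of chromosome 6: the Klrc2 transcript at chr6:129649537-129660689, Klrc1 at chr6:129666015-129678973, Klra4 at chr6:130043731-130067271, Klra8 at chr6:130115226-130129898, Klra7 at chr6:130218605-130231677 and Klra3 at chr6:130323289-130337574. The stretches lie within 1 exon each, exon 2 for Klra3, Klra4 and Klra8 and exon 1 for Klra7, Klrc1 and Klrc2. The coding sequences of Klra3 and Klra8 were 90.5% identical, those of Klra3 and Klra7 81.3%, and those of Klrc1 and Klrc2 83.1%. In the last 500 bases of the annotated transcripts, where a 3′ library takes its reads, 21.9% of 90-base windows of Klrc1 also occurred exactly in Klrc2, and 8.49% of those of Klrc2 occurred in Klrc1 or Klrc3. The share was 11.4% for Klrb1c, 6.57% for Klra7 and 5.15% for Klra3 (shared with Klra9 and Klra10), and 0% for Klra4, Klra8, Klrd1, Klre1 and Klrk1.

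Libraries held 39820290 to 100733879 UMIs, the molecule counts that make up all values below, and 3843 to 8490 kept cells with a median of 6251 to 8933 UMIs. CTX and combod18t shared 34 cell barcodes and Combined and ctxd18t shared 21, against 0 for the other pairs of libraries analysed; of the 30 and 20 kept in both, 0 and 3 fell in the same cluster. Leaving those barcodes out moved no log2 ratio of a member by more than 0.066. Classes of cells come from clustering without any Klr gene and from marker lists without any Klr gene. NK-like cells formed clusters 0 and 11, with a UMI of the NK receptor gene Ncr1 in 87.7% and 92.0% of cells and of the T cell gene Cd3e in 2.81% and 11.4%. Cluster 11 was cycling, with Mki67 in 97.2% of its cells. All 11 NK markers were above 0 in NK-like cells of each library, with a summed level of 9005 CPM in combod18t and 11670 to 14570 CPM in the other libraries. MRX held 583 NK-like cells, CTX 521, Combined 874, ctxd18t 83 and combod18t 78, or 11.2, 6.14, 20.4, 2.16 and 2.02% of each library. An unnamed cluster 12 (287 cells) held Ncr1 in 42.5% and Cd3e in 61.0% of its cells, so it is described apart from NK and T classes. The γδ gene Trdc was found in 36.9% of its cells, at 298 CPM, and in 58.3% and 61.2% of NK-like clusters 0 and 11, at 162 and 146 CPM. Cluster 13 (240 cells), led by C1q genes and Apoe, was left out, and the unnamed T cell cluster 16 is described with the CD4 T-like cells.

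Levels are given as CPM, a gene's UMIs in all cells of 1 class and library, scaled to a common total. Where 5 values follow each other, they stand in the order MRX, CTX, Combined, ctxd18t, combod18t. Ranges in brackets are exact 95% intervals of the counts alone; they say nothing of the spread between animals, and no test is given. A 3′ library yields 1 tag per molecule, so CPM does not grow with transcript length, though capture can differ between genes.

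In NK-like cells 8 of the 10 members reached at least 84.5 CPM in every library, Klrd1 was the highest in each, and the activating Ly49 genes Klra4 and Klra8 were the lowest in each. Klrd1 (ENSMUSG00000030165) stood at 707, 779, 608, 895 and 786 CPM. Combined was the lowest of the libraries, and its interval (592 to 625) did not meet that of any other. Its partner Klrc1 (ENSMUSG00000030167) stood at 237, 256, 226, 375 and 273 CPM. Klrc2 (ENSMUSG00000052736), the other partner, stood at 132, 146, 141, 246 and 158 CPM. Both partners were highest in ctxd18t and close together in MRX, CTX and Combined, where the intervals of Klrc2 overlap. In every library the Klrd1 level exceeded the sum of the Klrc1 and Klrc2 levels in NK-like cells.

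Klrk1 (ENSMUSG00000030149) was high in a single library, at 357, 428, 399, 729 and 356 CPM in NK-like cells. The ctxd18t library alone was high, with an interval of 667 to 794 against at most 448 elsewhere. This gap depends on how NK cells are defined: the log2 ratio of combod18t to ctxd18t was -1.03 here and -0.32 among single cells with an Ncr1 and no Cd3 UMI. Klre1 (ENSMUSG00000050241) was instead highest in MRX, at 656 CPM, with 549, 436, 565 and 522 CPM in the others. The Klre1 intervals of CTX, ctxd18t and combod18t overlap, and Combined was the lowest.

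Of the inhibitory Ly49 genes, Klra3 (ENSMUSG00000067591) stood at 476, 549, 450, 597 and 368 CPM. Klra7 (ENSMUSG00000067599) stood at 253, 358, 202, 469 and 390 CPM, lowest in Combined and highest in ctxd18t. Klra3 was above Klra7 in 4 libraries, and in combod18t the order turned, with intervals of 328 to 411 and 349 to 434 CPM that overlap. The activating Klra4 (ENSMUSG00000079852) stood at 18, 13.4, 16.2, 6.98 and 10.6 CPM, resting on 5 counts in ctxd18t and 9 in combod18t. Klra8 (ENSMUSG00000089727) stood at 2.16, 2.41, 1.09, 1.40 and 1.18 CPM, with 1 count in each day 18 library, too few to order the libraries. Klrb1c (ENSMUSG00000030325) stood at 108, 93.0, 84.5, 149 and 121 CPM. Ly49 gene content and Klrb1c alleles differ among inbred strains, and no strain is named; H2-Ea, a class II gene that strains of the H-2b haplotype do not transcribe, stood at 2965 to 5144 CPM in B-like cells. The part of strain in the low Klra4 and Klra8 values was not tested.

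**Figure D1:**
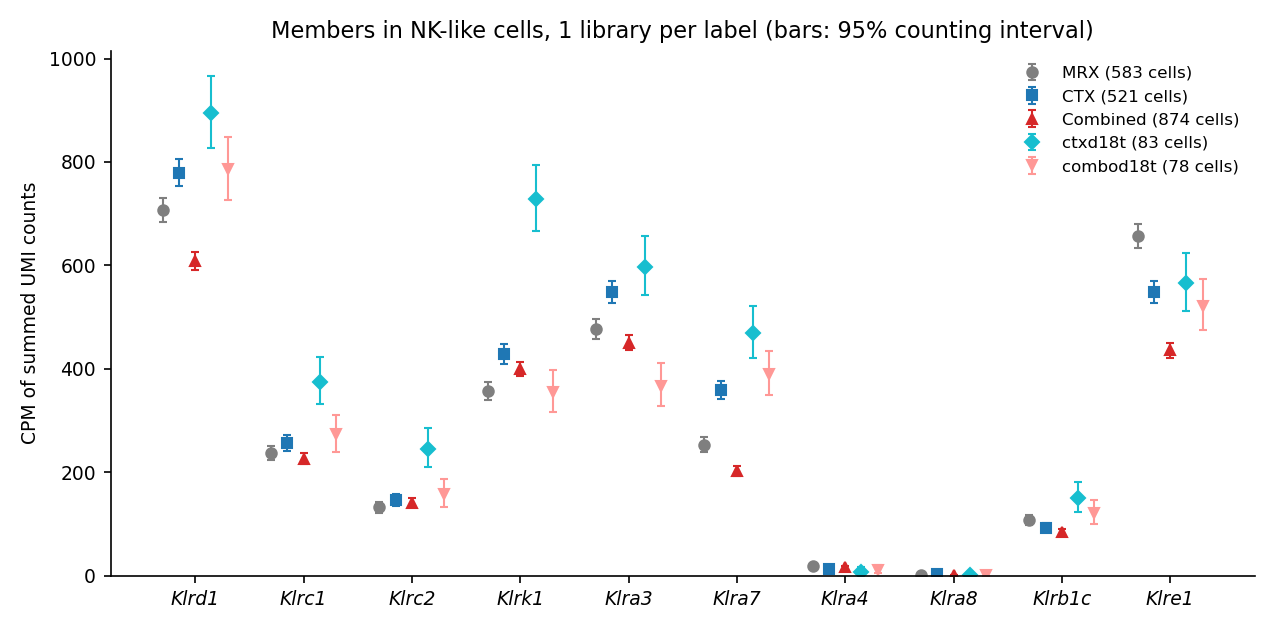
CPM (y axis) of each member (x axis) in NK-like cells, 1 point per library with its 95% counting interval. Klrd1 is the top point in each library, 608 to 895 CPM; Klrk1 in ctxd18t (729 CPM) stands above the other 4 libraries in these clustered cells, and Klra4 and Klra8 lie near 0.

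Thinning cells to 1000 UMIs shows how the messages were spread over NK-like cells at equal depth. Cells with fewer UMIs were left out, so that 581, 517, 870, 80 and 78 NK-like cells were used. A Klrd1 UMI was then found in 47.8, 50.3, 44.3, 51.2 and 52.6% of NK-like cells. A Klrk1 UMI was found in 28.1, 31.9, 32.2, 55.0 and 25.6% of them. For Klrk1 the ctxd18t interval, 43.5 to 66.2% of 80 cells, lay above that of every other library. Thinned shares of Klra3 were 31.0, 32.7, 29.1, 27.5 and 23.1%, and those of Klra7 16.5, 23, 14.4, 23.8 and 17.9%. Without thinning, 93.6 to 96.4% of NK-like cells had a UMI of Klrd1 but 44.9 to 61.8% had one of Klra3 and 33.9 to 43.0% one of Klra7. The Ly49 genes were thus detected in fewer NK-like cells than Klrd1 at either depth. In B-like cells, which should lack these genes, the thinned share was at most 1.16% for any member and the unthinned share at most 5.34%. Their median depth was 4007 to 8414 UMIs over the libraries, against 7583 to 9560.5 in NK-like cells.

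Among thinned NK-like cells of MRX, 58.3% showed none of the 4 Ly49 members, 33.9% showed 1 and 7.57% showed 2. The shares with 1 ranged from 33.9 to 38.8% over the libraries, and those with 2 from 3.85 to 9.48%. The share of NK-like cells with Klra7, given with against without a Klra3 UMI, was 20.6 against 14.7% in MRX, 27.8 against 20.7% in CTX, 15.02 against 14.1% in Combined, 22.7 against 24.1% in ctxd18t and 16.7 against 18.3% in combod18t, with intervals that overlap in each library. A Klrc2 UMI was found in 23.7% of Klrc1-positive against 9.29% of Klrc1-negative NK-like cells of MRX, 18.6 against 11.9% of CTX, 22.6 against 9.40% of Combined, 47.6 against 11.9% of ctxd18t and 20.0 against 5.17% of combod18t. The Klrc2 shares were higher beside Klrc1 in each library, and their intervals part in MRX, Combined and ctxd18t but overlap in CTX and combod18t. Some 3′ windows of Klrc1 also occur in Klrc2 (21.9%), and the part of shared reads in these Klrc2 shares was not tested. Klrd1, the partner of both, was found in 48.3% of Klrc1-positive and 47.7% of Klrc1-negative NK-like cells of MRX, and the intervals of these 2 shares overlap in each library.

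CD8 effector-like cells, clusters 2, 7, 9 and 15, carried Klrc1 and Klrc2 above their NK-like levels, Klrd1 and Klrk1 below them, and almost none of the Ly49 genes or Klrb1c. Klrc1 stood at 365, 288, 292, 549 and 450 CPM, above its NK-like level in every library. The log2 ratio of NK-like over CD8 effector-like cells for Klrc1 was -0.62, -0.17, -0.37, -0.55 and -0.72. Klrc2 stood at 202, 158, 167, 274 and 254 CPM, with intervals that overlap those of NK-like cells in CTX, Combined and ctxd18t. Klrd1 stood at 179, 279, 169, 576 and 499 CPM, higher in both libraries labelled d18 than in the other 3. NK-like cells exceeded CD8 effector-like cells by 1.98, 1.48 and 1.84 on the log2 scale in MRX, CTX and Combined but by 0.63 and 0.65 in ctxd18t and combod18t. Klrk1 stood at 222, 254, 253, 399 and 308 CPM.

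Klre1 was low in CD8 effector-like cells of MRX, CTX and Combined and not in those of the d18 libraries, at 9.73, 32.1, 6.60, 148 and 144 CPM. Its level in B-like cells was at most 5.67 CPM. The mix of clusters differed between these libraries. Cluster 7, led by Galnt18, Sema6d and Nrn1, held 260 CD8 effector-like cells of ctxd18t and 231 of combod18t but 13 of MRX, 42 of CTX and 3 of Combined, and it held Klre1 at 216 CPM over all libraries against 19.9 in cluster 2. It held 704 of the 804 Klre1 counts of CD8 effector-like cells in ctxd18t and 561 of the 656 in combod18t. Over all libraries Klrd1 stood at 765 CPM and Klrc1 at 592 CPM in cluster 7. Within cluster 2, which had at least 126 cells of each library, Klre1 stood at 30.4 CPM in ctxd18t and 56.0 in combod18t against 5.38 to 19.1 in the other libraries. Day and library cannot be told apart here.

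The remaining members were scarce in CD8 effector-like cells. Klra3 stood at 2.04, 4.89, 2.75, 19.4 and 11.2 CPM, higher in both day 18 libraries. Klra7 reached at most 5.35 CPM, with 0 counts in Combined, and Klrb1c at most 1.29 CPM. No Klra4 count was found in CD8 effector-like cells of any library, where 0 of 811 cells in MRX, at 3 counts of the total, allows up to 0.37% of cells with a UMI and sets no limit on cells expressing the gene, and Klra8 had at most 1 count per library.

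**Figure D2:**
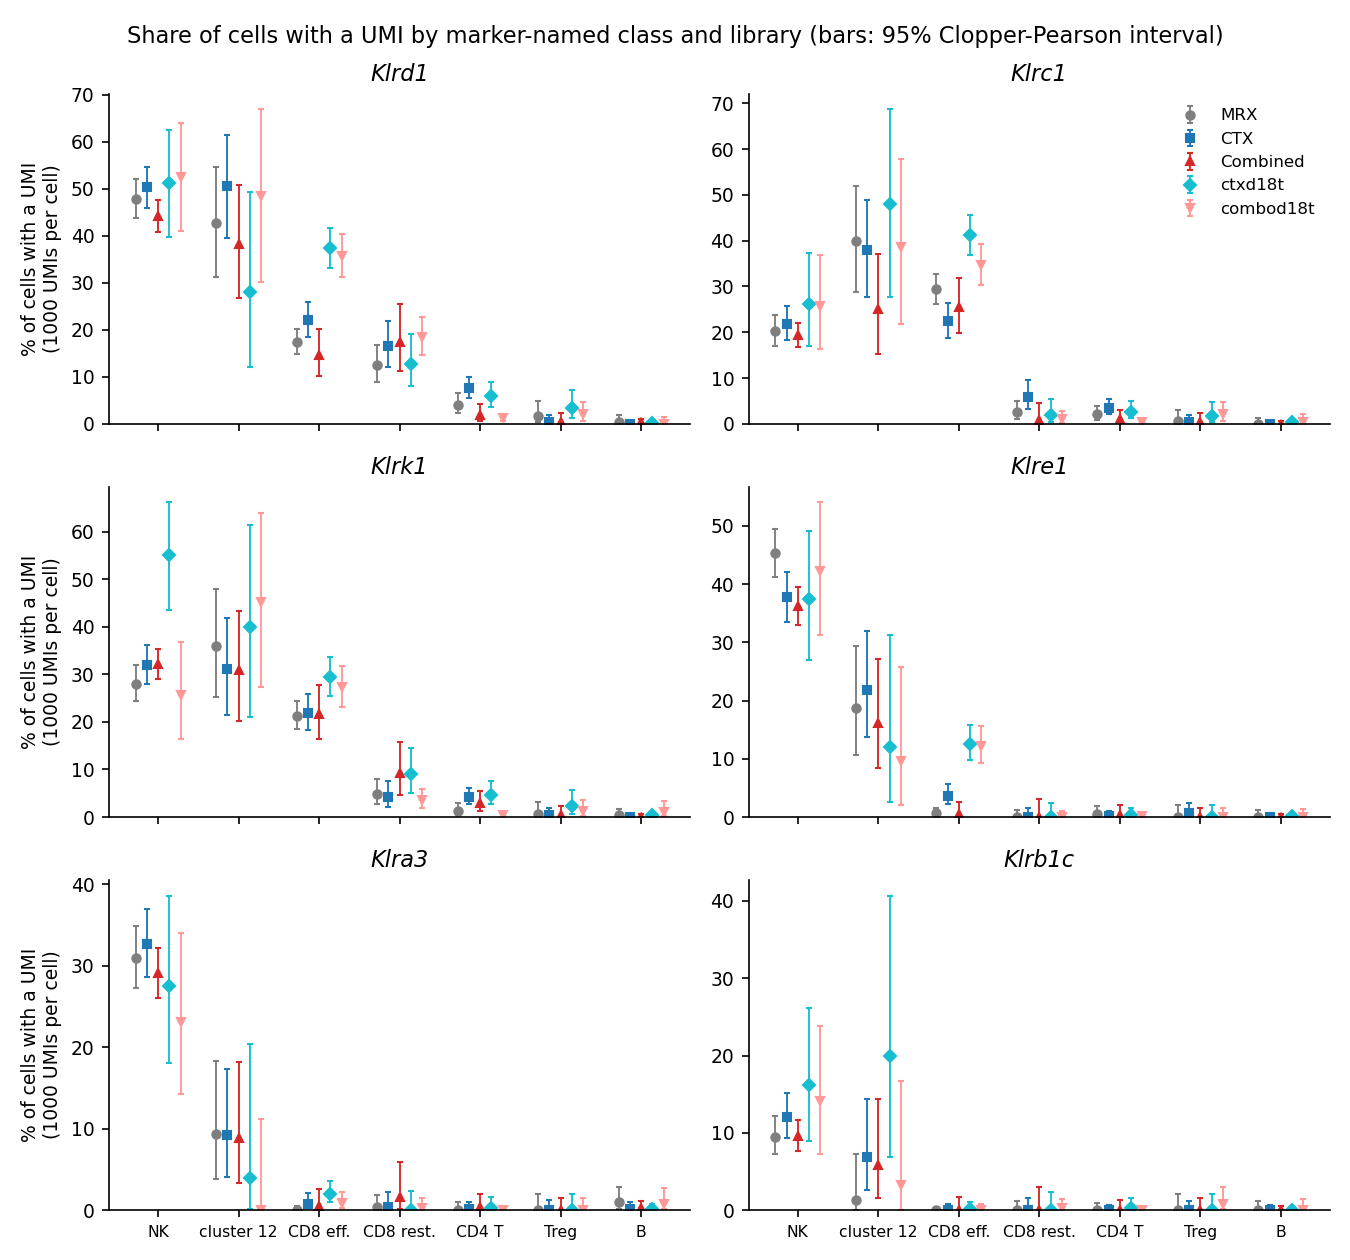
Percent of cells with a UMI (y axis, cells thinned to 1000 UMIs) of 6 members in 7 classes (x axis), 1 point per library with its 95% Clopper-Pearson interval. Klrd1 is found in 14.6 to 37.3% of CD8 effector-like and 12.5 to 18.5% of CD8 resting-like cells, Klrk1 in 21.3 to 29.5% of CD8 effector-like and 3.53 to 9.17% of CD8 resting-like cells, Klra3 and Klrb1c are near 0 outside NK-like cells and cluster 12, and Klre1 reaches 12.6 and 12.2% in CD8 effector-like cells of ctxd18t and combod18t.

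At equal depth a Klrc1 UMI was found in 29.4, 22.4, 25.5, 41.3 and 34.7% of CD8 effector-like cells. For Klre1 the shares were 0.7, 3.7, 0.5, 12.6 and 12.2%. Klrc2 was found in 36.7% of Klrc1-positive and 13.3% of Klrc1-negative CD8 effector-like cells of MRX, 28.2 against 11.1% of CTX, 27.8 against 11.4% of Combined, 33.3 against 15.1% of ctxd18t and 36.4 against 16.2% of combod18t. The Klrc2 intervals overlap in Combined and part in the other 4 libraries, and the part of reads shared by Klrc1 and Klrc2 was not tested here either. Klrd1 was found in 26.6% of Klrc1-positive and 13.7% of Klrc1-negative CD8 effector-like cells of MRX, 31.8 against 19.2% of CTX, 16.7 against 13.9% of Combined, 49.5 against 28.8% of ctxd18t and 48.7 against 29.0% of combod18t. The Klrd1 intervals overlap in CTX and Combined. Clusters 2, 7, 9 and 15 are pooled in these CD8 shares, and the part of their mix was not tested. Whether these pairs of shares differ between NK-like and CD8 cells was not tested.

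CD8 resting-like cells, clusters 4 and 8, held Klrd1 above every other member. Klrd1 stood at 162, 221, 188, 216 and 241 CPM, below its CD8 effector-like level in each library but Combined. Klrc1 stood at 49.2, 75.1, 29.5, 59.8 and 30.3 CPM and Klrk1 at 58.1, 73.4, 106, 126 and 51.3 CPM. Klre1 reached at most 4.54 CPM. Klrc1, above Klrd1 in CD8 effector-like cells of MRX, CTX and Combined, was below it in CD8 resting-like cells of every library.

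In CD4 T-like cells the members were concentrated in cluster 10, which was singled out after its values were seen and holds 339 cells led by Ccl1, Penk, Cd70 and Csf2. Klrd1 stood at 50.1, 134, 36.9, 97.0 and 27.5 CPM over all CD4 T-like cells. Without cluster 10 it stood at 17.7, 15.5, 12.3, 14.3 and 15.2 CPM, against 3.36, 2.59, 2.99, 4.35 and 17.7 CPM in B-like cells. Within cluster 10 alone it stood at 243, 228, 67.9, 362 and 340 CPM. Klrc1 without cluster 10 stood at 1.22 to 10.5 CPM, and within it at 53.6 to 337 CPM. Cd4 was detected in 72.0% and Cd8a in 28.9% of cluster 10 cells, and the part of CD8 cells in these levels was not tested. Cluster 10 made up 30 of 390 CD4 T-like cells in MRX, 167 of 574 in CTX, 62 of 284 in Combined, 53 of 344 in ctxd18t and 27 of 1418 in combod18t. Treg-like cells held Klrd1 at 14.9, 17.8, 12.1, 49.0 and 69.7 CPM. γδ T-like cells, 3 to 61 per library, held Klrk1 at 154, 230, 326, 265 and 214 CPM and Klrd1 at 0 to 88.4 CPM. The unnamed cluster 16, 168 cells led by Il17f with Cd3e in 100% and Cd4 in 82.7% of them, held Klrk1 at 68.3, 80.3, 78.1, 171 and 101 CPM and Klrd1 at 4.57 to 104 CPM, on at most 28 counts of either in a library.

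Cluster 12, the mixed Ncr1 and Cd3e group, held all members but Klra8, with Klrc1 above and the Ly49 genes below their NK-like levels. Klrc1 stood there at 456, 507, 308, 742 and 477 CPM, above NK-like and, apart from the overlapping intervals of Combined and combod18t, CD8 effector-like cells of the same library. Klra3 stood at 196, 167, 94.4, 111 and 14.8 CPM, below NK-like cells throughout, and Klra4 had at most 1 count per library.

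**Figure D3:**
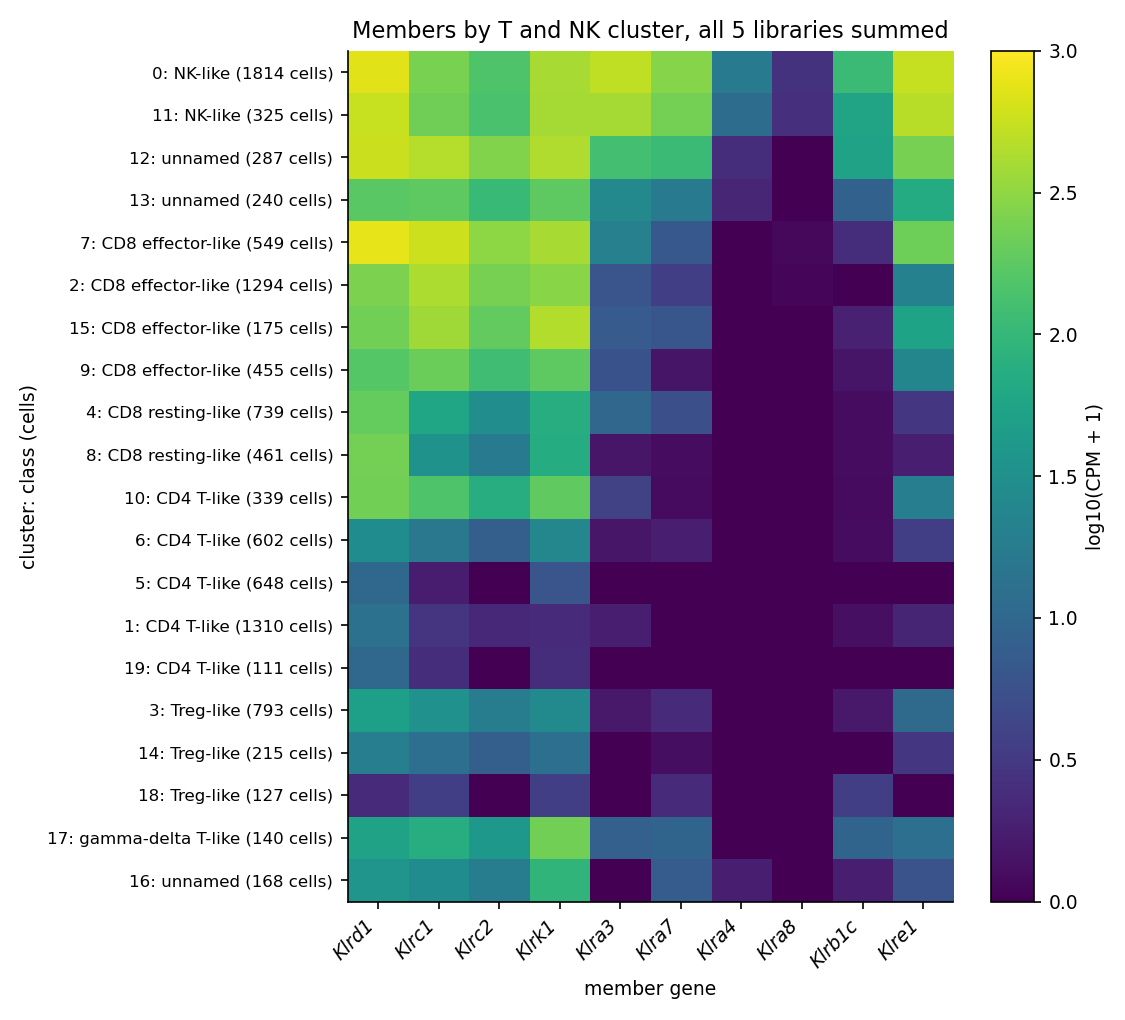
Level of each member (columns, log10 of CPM + 1) in each cluster of T and NK cells (rows, with class and number of cells), summed over 5 libraries. Klra3, Klra7 and Klrb1c are brightest in clusters 0, 11 and 12 and Klra4 and Klra8 are dark or near dark outside clusters 0 and 11, while Klrd1, Klrc1, Klrc2 and Klrk1 are also bright in clusters 7, 2, 15, 9 and 13 (unnamed, with C1q genes leading).

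Klrc2 and Klrc1 counts stood in much the same ratio in NK-like and CD8 cells. The number of Klrc2 counts per Klrc1 count in NK-like cells was 0.557, 0.570, 0.625, 0.654 and 0.578. In CD8 effector-like cells it was 0.555, 0.550, 0.571, 0.4995 and 0.564. Over all T and NK classes and cluster 12, wherever a library had at least 20 Klrc1 counts, it lay between 0.368 (CD4 T-like cells of MRX, 35 and 95 counts) and 0.682 (cluster 12 of combod18t). CD8 resting-like cells of Combined, under that minimum, had 5 and 19 counts. The intervals of NK-like and CD8 effector-like cells overlap in 4 libraries and part in ctxd18t (0.538 to 0.794 against 0.469 to 0.532). Over 30 units of class and library the log2(CPM + 1) values of Klrc1 and Klrc2 had a Pearson correlation of 0.988, the highest among the members, followed by 0.960 for Klra3 and Klra7; units share libraries and neighbouring 3′ ends share windows, and how far shared reads set this ratio was not tested.

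**Figure D4:**
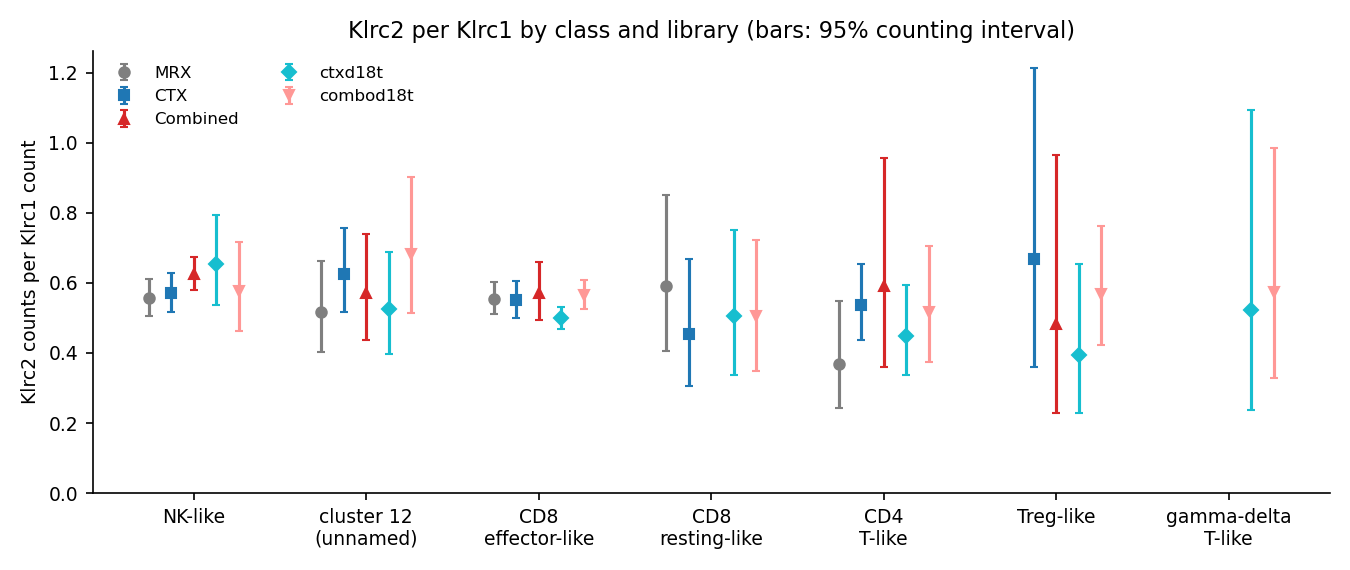
Klrc2 counts per Klrc1 count (y axis) by class (x axis), 1 point per library with its 95% counting interval. Points lie between 0.368 and 0.682, and the CD8 effector-like points lie between 0.4995 and 0.571.

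The genes whose levels over the same 30 units ran closest to Klrd1, among 5704 genes outside the Klr families, were Gpr171 (Pearson correlation 0.946), Samd3 (0.940) and Eomes (0.933), the last a transcription factor that was also an NK naming marker. For Klrk1 they were Sema4a (0.944), Gnptab (0.902) and Nedd4 (0.894). For the sum of the Ly49 members they were Adamts14 (0.974), Rab27b (0.968) and Gas7 (0.959). Ranked by Spearman correlation instead, 2 of the 3 genes stayed among the first 3 for Klrd1, 1 of 3 for Klrk1 (Sema4a, after Rhoq and before Runx3) and 2 of 3 for the Ly49 sum.

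By their labels, Combined against CTX and combod18t against ctxd18t set the combination beside a single agent; CTX and Combined were also set against MRX. These comparisons share libraries with each other, apart from the day 18 one, so their values are given side by side only. A gene counts as expressed with at least 100 counts over both libraries and 50 CPM in 1, and as past 2-fold with a log2 ratio of CPM + 1 of at least 1 in size. In NK-like cells 8 members were expressed in each comparison, having passed through levels in either library, and Klra4 and Klra8 were not. Fewer molecules per cell and a changed mix of cells within a class cannot be told apart from summed counts.

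In NK-like cells of Combined against CTX 0 of 8 expressed members passed 2-fold, where 0.0806% of 3724 expressed genes did. All 8 log2 ratios were below 0, with a median of -0.23 against 0.05 over all expressed genes. The summed NK markers were also lower in Combined, at 13230 against 14570 CPM, and their part in the ratios was not tested. Klra7 was the furthest, at -0.82 (-0.93 to -0.73), and 0.08% of expressed genes lay below it. Klrd1 stood at -0.36 (-0.42 to -0.29), Klre1 at -0.33 (-0.41 to -0.26) and Klra3 at -0.28 (-0.36 to -0.21). Klrc2, at -0.05 (-0.19 to 0.09), and Klrb1c, at -0.14 (-0.31 to 0.04), had intervals that hold 0. With the same mix of clusters 0 and 11 in both libraries, Klra7 stood at -0.83 and Klrd1 at -0.34. Cycling cluster 11 made up 98 of 521 NK-like cells in CTX and 172 of 874 in Combined.

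In NK-like cells of combod18t against ctxd18t 1 of 8 expressed members passed 2-fold, where 0.927% of 3235 expressed genes did. That member was Klrk1, at -1.03 (-1.24 to -0.83), from 729 to 356 CPM. Klra3 followed at -0.70 (-0.92 to -0.49) and Klrc2 at -0.63 (-0.97 to -0.31; -1.60 with cells thinned to 1000 UMIs), while Klre1, at -0.11 (-0.31 to 0.08), had an interval that holds 0. All 8 ratios were again below 0, with a median of -0.38 against 0.04 over all expressed genes. These libraries hold 83 and 78 NK-like cells, and the summed NK markers, none of them a Klr gene, were also lower in combod18t, at 9005 against 13800 CPM; their part in the ratios was not tested. The Klrk1 ratio fell short of 2-fold under other definitions of the class: -0.76 at a finer clustering, -0.76 with Klr genes allowed to cluster cells, and -0.32 among single cells with an Ncr1 and no Cd3 UMI.

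In NK-like cells of CTX against MRX 0 of 8 expressed members passed 2-fold (0.599% of expressed genes did), with Klra7 at 0.50 (0.40 to 0.61) and Klre1 at -0.26 (-0.33 to -0.18). In Combined against MRX 0 of 8 passed (1.27% did), with Klre1 at -0.59 (-0.66 to -0.52), Klra7 at -0.32 (-0.43 to -0.22) and Klrk1 at 0.16 (0.08 to 0.25). Klre1 was highest in MRX, and Klra7 was above MRX in CTX and below it in Combined. Cycling cluster 11 made up 44 of 583 NK-like cells in MRX, 98 of 521 in CTX and 172 of 874 in Combined. With the same mix of clusters, Klra7 stood at 0.56 and Klre1 at -0.25 in CTX against MRX. In Combined against MRX they stood at -0.29 and -0.57.

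**Figure D5:**
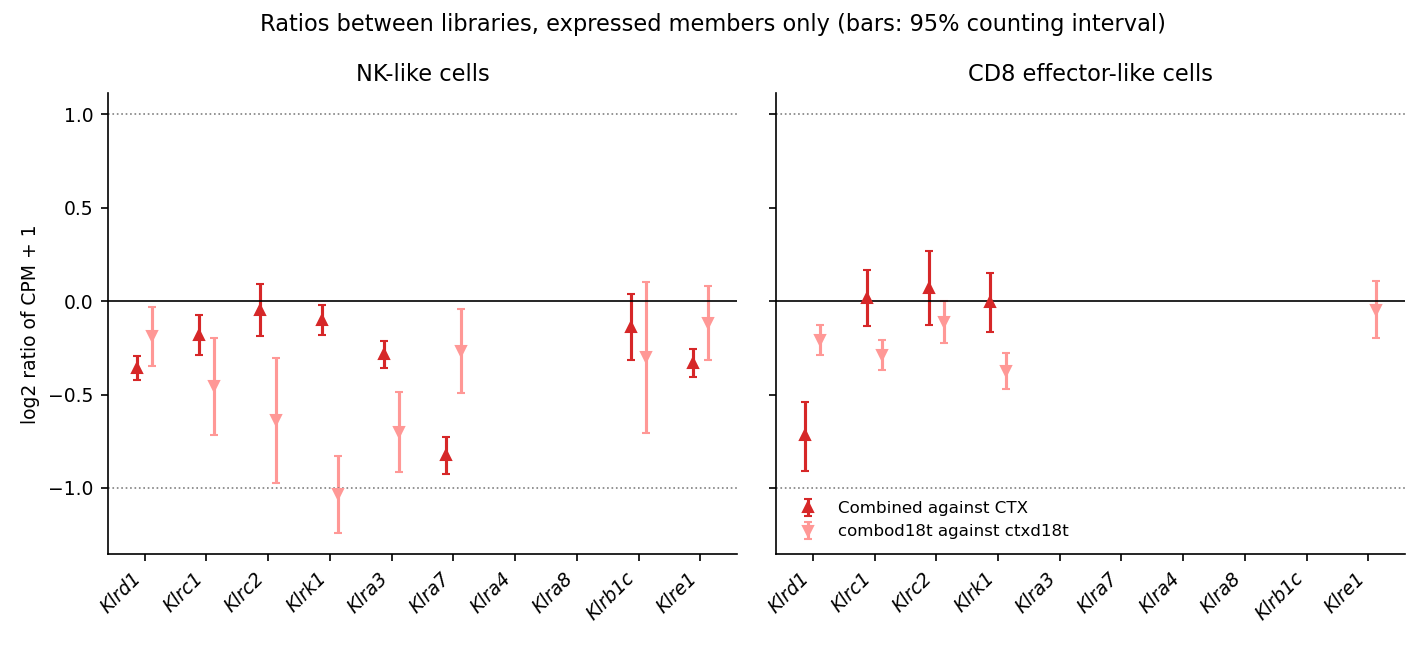
Log2 ratio of CPM + 1 (y axis) for expressed members (x axis) in NK-like and CD8 effector-like cells, for Combined against CTX and combod18t against ctxd18t, with 95% counting intervals; dotted lines mark 2-fold. In NK-like cells all points lie below 0 and Klrk1 in the day 18 comparison (-1.03) alone reaches the lower line.

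In CD8 effector-like cells 4 members were expressed in Combined against CTX and 0 of them passed 2-fold (0.21% of expressed genes did). Klrd1 stood at -0.72 (-0.91 to -0.54), from 279 to 169 CPM, with 0.58% of expressed genes below it, while Klrc1 (0.02), Klrc2 (0.07) and Klrk1 (-0.01) had intervals that hold 0. With the same mix of clusters 2, 9 and 15 the Klrd1 ratio was -0.67. In combod18t against ctxd18t 0 of 5 passed (0.745% did), with Klrk1 at -0.37 (-0.47 to -0.27), Klrc1 at -0.29 (-0.37 to -0.21) and Klre1 at -0.04 (-0.20 to 0.11). In CTX against MRX 0 of 4 passed (3.48% did), with Klrd1 at 0.64 (0.51 to 0.77) and Klrc1 at -0.34 (-0.45 to -0.23). Cluster 2 held 627 of 811 of these cells in MRX and 215 of 490 in CTX, cycling cluster 9 held 81 and 202, and cluster 7 held 13 and 42. With the same mix of clusters Klrd1 stood at 0.83 and Klrc1 at -0.16. In Combined against MRX 0 of 4 passed (3.65% did), and Klrd1 stood at -0.08 (-0.27 to 0.11). CTX thus had the highest Klrd1 level of these 3 libraries.

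In CD8 resting-like cells 1 of 3 expressed members passed 2-fold in Combined against CTX (0.623% of expressed genes did): Klrc1, at -1.32 (-2.15 to -0.62), from 88 counts to 19. In combod18t against ctxd18t 1 of 3 passed (2.89% did): Klrk1, at -1.27 (-1.61 to -0.97). Cluster 8 held 350 of 373 of these cells in combod18t and 63 of 156 in ctxd18t; within it Klrk1 stood at 49.4 against 177 CPM, and within cluster 4, with 23 and 93 cells, at 91.5 against 85.3 CPM. The Klrk1 ratio at the same mix of clusters was -1.40. In CTX against MRX 0 of 3 passed (0.437% did) and in Combined against MRX 0 of 2 (1.19% did), with Klrk1 at 0.85 (0.39 to 1.32) in the latter.

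In CD4 T-like cells 2 of 3 expressed members were past 2-fold in Combined against CTX (0.345% of expressed genes were), Klrd1 at -1.83 (-2.24 to -1.50) and Klrc1 at -1.47 (-1.97 to -1.06). In combod18t against ctxd18t 3 of 3 were (9.34% were), led by Klrk1 at -2.53 (-2.95 to -2.30). In CTX against MRX 2 of 3 were (4.85% were), Klrd1 at 1.40 (1.10 to 1.75) and Klrk1 at 1.27 (0.93 to 1.68), and in Combined against MRX 0 of 2 (3.47% were). By a gate on single cells with a Cd3 and a Cd4 but no Cd8 UMI, Klrd1 stood at -0.95 and Klrc1 at -0.28 in Combined against CTX, both under 2-fold. In CTX against MRX the gate put Klrd1 at 0.98 and Klrc1 at 1.03, so that Klrc1 took the place of Klrd1 past 2-fold. In combod18t against ctxd18t 3 of 3 stayed past 2-fold by the gate. Several values also changed without cluster 10. Without it Klrd1 stood at -0.31 in Combined against CTX, 0.088 in combod18t against ctxd18t and -0.18 in CTX against MRX. Without it Klrc1 stood at 0.11 in Combined against CTX, -1.06 in combod18t against ctxd18t and 1.002 in CTX against MRX. Without it Klrk1 stood at 1.47 in Combined against CTX, from 6.89 to 20.8 CPM, at -1.65 in combod18t against ctxd18t, from 15.2 to 4.18 CPM, and at 0.28 in CTX against MRX. In Combined against MRX without it Klrd1 stood at -0.49 and Klrk1 at 1.75. These ratios are values only: without cluster 10 the 3 genes lay at 1.22 to 20.8 CPM, under the 50 CPM that a gene needs to count as expressed. In the day 18 comparison Klrc1 went from 10.5 to 4.50 CPM without it, and B-like cells of ctxd18t and combod18t held Klrc1 at 5.14 and 7.01 CPM and Klrk1 at 7.25 and 11.7 CPM. The remaining CD4 T-like cells also lay in other clusters: cluster 1 held 1194 of 1391 in combod18t and 80 of 291 in ctxd18t, and the part of this mix was not tested. In Treg-like cells Klrd1 in combod18t against ctxd18t was the only expressed member of any comparison, at 0.50 (0.13 to 0.90), where 1.7% of genes passed 2-fold.

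Klrk1 counts were also found in myeloid and dendritic cells, in classes that were looked at after its counts had been seen to lie outside T and NK cells. Monocyte-macrophage-like cells held 8.57, 44.2, 18.8, 24.75 and 16.75% of each library's Klrk1 counts, NK-like cells 39.2, 18.1, 48.4, 8.51 and 7.95%, and CD8 effector-like cells 21.1, 10.1, 6.78, 35.2 and 37.0%. The myeloid share was the largest of the 3 in CTX only. In monocyte-macrophage-like cells Klrk1 stood at 32.8, 83.6, 77.4, 96.6 and 87.4 CPM, and after thinning 2.67% of these cells had a Klrk1 UMI in MRX against 7.41 to 8.17% elsewhere. MRX alone was low, and within the C1qa-led cluster A1 it was low as well, at 35.5 CPM against 82.8 to 90.1 in the other libraries. Monocyte-macrophage-like cells also include cluster A13, led by C1qa too, where 87.0 to 93.6% of cells had a Cd3e UMI and Klrk1 stood at 104 to 158 CPM. A13 held 353 cells of CTX, 108 of Combined, 155 of ctxd18t and 149 of combod18t, and under 50 of MRX. Its part in the shares and levels of this class was not tested. In the interferon-gene cluster A15 (Cxcl10, Rsad2, Mx1) MRX, with 62 cells, stood at 103 CPM against 106 in CTX and 113 in Combined, with intervals that overlap.

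In pDC-like cells, named from plasmacytoid dendritic cell markers such as Siglech, Klrk1 stood at 285, 359, 286, 294 and 250 CPM. After thinning, 22.2 to 29.9% of pDC-like cells had a Klrk1 UMI, against at most 0.51% of B-like cells in the same thinning draw. Klrd1 stood there at 275.5, 197, 140, 212 and 256.5 CPM, while Klra4, Klra7 and Klra8 had 0 counts in pDC-like cells of every library. In cDC2-like cells (Mgl2, Cd209a) Klrk1 stood at 119, 152, 188, 221 and 178 CPM, Klrd1 at 106, 39.2, 28.3, 83.9 and 88.4 CPM and Klrb1c at 10.8 to 18.5 CPM. Cd3e stood at 27.6, 17.6, 6.53, 72.4 and 115 CPM in cDC2-like cells and Ncr1 at 0 to 13.8 CPM. Beside the pDC-like values, Cd3e stood at 11.7, 54.7, 123, 63.0 and 188 CPM in pDC-like cells and Ncr1 at 0 to 5.60 CPM, and the part of T cell RNA in the Klrd1 values of pDC-like and cDC2-like cells was not tested. In monocyte-macrophage-like cells Cd3e stood at 12.4, 32.2, 32.4, 72.9 and 158 CPM and Ncr1 at 0.33 to 5.22 CPM. In MRX, CTX and Combined the other members each stayed at or below 10.4 CPM in monocyte-macrophage-like cells. Klrd1 stood there at 47.7 CPM in ctxd18t and 82.5 in combod18t and Klrc1 at 35.7 and 54.7, where Cd3e was also highest. Cluster A13 is among these cells, and its part in these values was not tested.

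Other Klr genes, 17 measured, were expressed in NK-like cells for 6 to 8 genes per comparison and in T classes for at most 2 (Klrg1 was at -1.04 in Treg-like cells of combod18t against ctxd18t, where 1.7% of genes passed). In NK-like cells of Combined against CTX 1 of 7 passed 2-fold, where 0.0806% of all expressed genes did: the Ly49 gene Klra5, at -1.15 (-1.35 to -0.99), from 127 to 56.6 CPM. In Combined against MRX 2 of 6 passed (1.27% of all expressed genes did), Klra5 at -1.10 and Klrb1a at -1.10, and in combod18t against ctxd18t 1 of 8 (0.927%), Klra1 at -1.32. Klri2, the activating partner of Klre1, stood at 65.9 CPM in ctxd18t and 150 in combod18t in CD8 effector-like cells, a log2 ratio of 1.18 (1.00 to 1.38) and the 1 of 2 expressed genes of this list past 2-fold there (0.745% of all were), against at most 2.33 CPM in MRX, CTX and Combined. Klri1 stood at 12.7 and 16.7 CPM in the same day 18 cells and at most 1.4 in MRX, CTX and Combined, so that Klre1 and both its partners were higher in the d18 libraries. Cluster 7 held 260 of these cells in ctxd18t and 231 in combod18t but 13 in MRX, 42 in CTX and 3 in Combined. The part of this mix was not tested for Klri1 and Klri2.

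The adaptors and regulators, 23 measured, stayed under 2-fold in NK-like cells of the comparisons among MRX, CTX and Combined. Tyrobp stood at 838 to 1641 CPM and Fcer1g at 560 to 949 CPM in NK-like cells, and both at most 38.7 CPM in CD8 effector-like cells, where Hcst, the other NKG2D adaptor, stood at 178 to 444 CPM. In NK-like cells 0 of 19 expressed genes of this list passed 2-fold in Combined against CTX (0.0806% of all did). In combod18t against ctxd18t 2 of 17 did (0.927%), the transcriptional regulator Id2 at -1.17 and the activating receptor Cd226 at -1.07 (-1.60 to -0.59). In CD8 effector-like cells of Combined against MRX 3 of 12 did (3.65% of all expressed genes did): the inhibitory receptor Tigit at -1.52, Hcst at -1.07 and Eomes at -1.06. Klrk1, whose product Hcst serves, stood at 0.19 (0.03 to 0.35) in that comparison. Cluster 2 held 627 of 811 of these cells in MRX and 126 of 213 in Combined, and cycling cluster 9 held 81 and 67; the part of this mix was not tested for the 3 genes. In CD8 resting-like cells 4 of 11 passed in combod18t against ctxd18t (2.89% of all did), Ptpn6 at -1.74, Eomes at -1.59, Cd226 at -1.39 and Id2 at -1.003, and Eomes was the 1 of 9 that passed in Combined against CTX (-1.76; 0.623% of all did) and against MRX (-1.21; 1.19% did). Over all libraries Eomes stood at 26.9 CPM in cluster 8, which held 350 of 373 of these cells in combod18t, and at 68.5 CPM in cluster 4, which held 93 of 156 in ctxd18t, and the part of this mix was not tested. In CD4 T-like cells 6 of 12 passed in combod18t against ctxd18t (9.34% of all did), all lower (Zeb2 -2.48, Id2 -1.94, Tigit -1.92, Nfil3 -1.74, Ptpn6 -1.44 and Cd226 -1.29), 3 of 12 in CTX against MRX (4.85% did), all higher (Tbx21 1.69, Zeb2 1.47 and Id2 1.18), and 1 of 12 in Combined against MRX (3.47% did; Tbx21, 1.70). In the day 18 comparison cluster 1 held 1194 of 1418 of these cells in combod18t and 80 of 344 in ctxd18t, with Zeb2 at 3.32 CPM there, 402.6 in cluster 10 and at most 90.9 in the other CD4 T-like clusters. Cluster 10 held 30 of 390 of these cells in MRX, 167 of 574 in CTX and 62 of 284 in Combined, and the part of these mixes was not tested.

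Of 12 measured ligand genes, 4 to 6 were expressed in NK-like cells. The Qa-1 gene H2-T23 stood at 124 to 218 CPM in NK-like cells and at 276 to 374 CPM in CD8 effector-like cells. The NKG2D ligand gene Ulbp1 stood at 41.9 to 74.3 CPM in NK-like cells and at 45.2 to 81.5 CPM in CD8 effector-like cells. The 1 ligand gene past 2-fold in NK-like cells was Cdh1, the E-cadherin bound by Klrg1, at -2.15 (-2.68 to -1.82) in CTX against MRX (0.599% of all genes passed) and at -1.81 (-2.19 to -1.57) in Combined against MRX (1.27% passed). It was at 58.0 CPM in MRX, 12.3 in CTX and 15.8 in Combined, and in CD8 effector-like cells of CTX against MRX it stood at -1.25, the 1 of 7 expressed ligand genes past 2-fold (3.48% of all were). Cluster 2 held 627 of 811 of these CD8 cells in MRX and 215 of 490 in CTX, and cycling cluster 9 held 81 and 202. The part of this mix was not tested for Cdh1. H2-L, Raet1a, Raet1b, Raet1c, H60a and Ulbp3 were not used here.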

How the data were processed

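CD45+ cells from mouse mammary tumours were profiled with 10x 3′ on-chip multiplexing per the labels' protocols, which give Cell Ranger 9.0.1 as the counting software; GRCm39 and Seurat 5.2.0 are named in the submitters' processing notes. The deposited matrices hold raw UMI counts per gene and cell. Members and gene lists were chosen with earlier results of these data known.

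Cells with at least 200 genes and at most 15% mitochondrial counts were kept (52 to 166 barcodes removed per library). Cells with a doublet score above the top 5% cutoff of their library were then removed, because the automatic threshold marked at most 0.112%. This took out 257, 408, 200, 168 and 153 cells in MRX, CTX, Combined, ctxd18t and combod18t, under 5% of each and not the same share in each. Cells of 5 libraries were clustered together (scanpy 1.11.5, Leiden resolution 1, 2000 variable genes, 30 components, seed 7), then T and NK cells again. All Klr genes were kept out of the clustering. Clusters were named from marker lists without Klr genes, with naming thresholds set after the data were seen: an NK score of at least 0.5 with a CD3 level under 0.2 of the highest cluster, Foxp3 in 25% of cells for Treg-like, and a 2-fold excess of Cd8 or Cd4 for CD8 and CD4. Monocyte-macrophage-like, cDC2-like and pDC-like classes were added after the Klrk1 counts were seen, and 1 cluster with pDC and 2 with C1q leading genes were left unnamed, as were clusters 12 and 16. Clusters A1 and A13, also led by C1q genes, stayed in the monocyte-macrophage-like class.

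Counts were summed per class and library and scaled to CPM, with exact Poisson 95% intervals. Ratios are log2 of CPM + 1 with exact conditional binomial intervals, for classes of at least 50 cells in both libraries. Shares use cells thinned to 1000 UMIs, with shallower cells left out, and Clopper-Pearson intervals. With 1 library per label there is no replicate and no test. On simulated counts with 200 changed genes, the direction was kept in 100% and the intervals held the true value for 94.8% of 3564 genes in NK-like cells (Combined against CTX). All 10 members are named in the text; of other Klr genes, adaptors and ligands, those past 2-fold at 50 CPM or more and the highest are named, and for likeness the 3 closest genes. Alternatives covered the scaling, pseudocount, filters, depth, doublet removal, clustering and gating; leaving out cluster 10, leaving out shared barcodes and holding the mix of clusters equal were added after seeing the data. Python 3.11.15, numpy 2.4.6, scipy 1.17.1 and pandas 2.3.3 were used.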

Additional observations from a re-analysis of the deposited data

Results flagged for a closer look

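Klrk1 in CD8 resting-like cells went in opposite directions in 2 comparisons: its log2 ratio was 0.52 in Combined against CTX (73.4 to 106 CPM, 86 and 68 counts) and -1.27 in combod18t against ctxd18t (126 to 51.3 CPM, 166 and 161 counts). Each ratio is 1 library against 1, and the difference between them was not tested. The ratio of Combined to CTX has an interval of 0.04 to 1.00, and was 1.15 by the mean over cells of each cell's CPM. Cluster 8 held 350 of 373 of these cells in combod18t, 63 of 156 in ctxd18t, 19 of 122 in Combined and 9 of 241 in CTX.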

How the results depend on the processing

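No paired analysis was possible because each label has 1 library, and for the same reason no replicate could be left out. Of the log2 ratios of members under all alternatives, 650 kept their value within the counting interval, 109 moved and 3 that were past 2-fold changed sign; of the counts of members past 2-fold, 156 were within 1.5 times and 15 moved. Counting every ratio, past 2-fold or not, the sign was kept in 44 of 60 by the gate on single cells, 62 of 71 with cells thinned to 1000 UMIs, 7 of 11 without cluster 10, 68 of 71 by the mean over cells, 50 of 52 at the same mix of clusters, and at least 70 of 71 under each other alternative. Without cluster 10, the ratios past 2-fold that changed sign in CD4 T-like cells were Klrc1 in Combined against CTX (0.11), Klrd1 in combod18t against ctxd18t (0.088) and Klrd1 in CTX against MRX (-0.18); Klrk1 in Combined against CTX, under 2-fold before, went from -0.36 to 1.47, and the ratios past 2-fold numbered 1 in Combined against CTX, 1 in CTX against MRX and 1 in Combined against MRX, all of genes under 50 CPM once cluster 10 is left out. In NK-like cells of combod18t against ctxd18t the count of 1 became 2 with cells thinned to 1000 UMIs (Klrc2 at -1.60), and 0 at Leiden resolution 2, 0 with Klr genes allowed in the clustering and 0 by the gate on single cells. In CD8 resting-like cells the mean over cells of each cell's CPM gave 2 in Combined against CTX (Klrk1 at 1.15 was added), 2 in combod18t against ctxd18t (Klrc1 at -1.14) and 1 in Combined against MRX (Klrk1 at 1.24); median-of-ratios size factors gave 2 in combod18t against ctxd18t, as did Klr genes in the clustering (2). In CD4 T-like cells the gate gave 0 in Combined against CTX, 2 in CTX against MRX with Klrc1 in place of Klrd1, and 1 in Combined against MRX, and thinning gave 2 in Combined against MRX. Replacing the CPM filter by a minimum of 20 counts raised the share of genes past 2-fold, for NK-like Combined against CTX to 0.852%. Shares of cells follow depth: 209 of them moved without thinning or at 2000 UMIs. The causes of the other changes were not tested, and classes of 78 and 83 NK-like cells limit the day 18 values.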
